A study of Mus musculus with 10 samples.

Results

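Solute carriers are the membrane proteins that move amino acids, sugars, nucleosides, vitamins and ions across the plasma membrane and the membranes of mitochondria, Golgi, endosomes and lysosomes. The carriers described here are the 145 mouse genes named by the Slc pattern (Slc, a family number, the letter a and a member number) whose mean level over the 10 libraries was at least 5 TPM (transcripts relative to all transcripts of a library, a level per length), with Slc9a7 added by name. They were chosen by their level over all libraries out of 334 genes of that name pattern and of 50600 genes in all. Slc2a1, Slc2a3, Slc16a1 and Slc16a3, the glucose and lactate carriers of glycolysis, also reached the level and were left out, and 185 genes of the pattern lay below it. Slc9a7, at a mean of 8.64 TPM, would have met the level without being added.

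The cells were mouse embryonic fibroblasts (MEFs) from E13.5 embryos of the cross CBA/CaJ X C57BL/6J, carrying an Oct4-GFP reporter. In both arms they received Oct4, Klf4 and Sox2 (together OKS) by retrovirus and were moved to iCD1 medium, a defined medium for reprogramming. The OKS + FoxO6 arm also received FoxO6, a forkhead transcription factor, and the OKS + DsRed arm the red fluorescent protein DsRed as its control. RNA of both arms was sequenced on days 0, 1, 3, 5 and 7, from a single library each and with no replicates. The libraries of an arm may all derive from 1 infected culture, so each p-value below measures the spread within these 2 time courses only. A primary fibroblast culture is a mixture, infection differs from cell to cell, and in bulk RNA fewer cells of a type and less RNA per cell cannot be told apart.

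The libraries held between 1208379 and 2225750 expected counts, and the carriers between 0.89% and 1.07% of them. Foxo6 itself lay between 0.61 and 2.29 TPM with DsRed and between 762 and 1356 TPM with FoxO6, day 0 included, so every library matched its arm and the FoxO6 library of day 0 already held the transcript. The day on a label was not checked by it. Of the 9 fibroblast markers tested, all were lower at day 7 than at day 0, while between the arms Twist1 (log2 fold change 0.99) and Pdgfra (0.96) were higher with FoxO6 and Prrx1 (-0.78) and Col3a1 (-0.64) lower. Of 5 epithelial markers, 3 could be tested, and Cdh1, Epcam and Krt8 all lay lower with FoxO6. The summed epithelial level ran from 15.1 TPM at day 0 to 644 TPM at day 7 with DsRed and from 3.14 to 143 TPM with FoxO6. The macrophage markers Ptprc, Csf1r and Adgre1 stayed at or below 0.60 TPM, while Aif1 reached 3.29, Lyz2 6.17 and Cd68, a lysosomal protein, 52.6 TPM. Of the red cell markers Klf1 was at 0 in all libraries, and Hbb-bs reached 5.91 and Alas2 5.58 TPM. Of the endothelial markers Cdh5 and Emcn stayed at or below 1.24 TPM and Esam at or below 3.21 TPM. Pecam1 reached 5.73 TPM (18 reads) with DsRed at day 7, where FoxO6 had 0.76 TPM (2 reads), while Tek ran from 16.8 to 47.3 TPM with DsRed and from 27.6 to 104 TPM with FoxO6 and was called higher. The part of these marker differences in the carrier results was not tested.

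Some background helps to place the carriers. Reprogramming starts from a mesenchymal cell and passes through an epithelial stage, while the medium and the metabolism of the cell change. Carriers of the plasma membrane set what the cell takes up, the SLC25 family serves the inner mitochondrial membrane, and carriers of endosomes and lysosomes work with the proton pump that acidifies them. Several amino acid carriers are targets of ATF4, the factor of the amino acid response, and carriers such as Slc7a1 and Slc20a1 serve retroviruses as receptors.

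By level, the mitochondrial carriers were the largest group. Their 32 members summed to between 2171 and 3212 TPM per library, of 6399 to 7417 TPM for all 145. Slc25a3, which brings phosphate into mitochondria, had the highest mean level of all members at 589.9 TPM, ahead of the ADP/ATP carriers Slc25a5 at 385.7 and Slc25a4 at 332.4 TPM. The highest member of the amino acid group was the taurine carrier Slc6a6 (199 TPM), that of the metal group the zinc carrier Slc39a1 (163 TPM) and that of the nucleotide sugar group Slc35a4 (84.6 TPM). Slc4a11 led the ion group (93.3 TPM), the choline carrier Slc44a1 the mixed group of nucleosides, vitamins and organic ions (70.6 TPM) and the sugar carrier Slc50a1 the fuel group (59.9 TPM). At the lower end, Slc37a2 (5.28 TPM), Slc25a53 (5.54), Slc22a4 (5.81) and Slc29a2 (5.99) lay just inside the level, and Slc1a1 (4.99 TPM), Slc6a9 (4.92), Slc16a11 (4.87) and Slc25a26 (4.82) just outside.

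Slc9a7 (chromosome X, 20105754 to 20291807, minus strand, GRCm38) encodes NHE7, which exchanges sodium or potassium for protons in the trans-Golgi network and endosomes. It was close to absent with DsRed and present with FoxO6. The DsRed libraries held 0.74 TPM at day 0, 0 at days 1 and 3, 1.92 at day 5 and 0.49 at day 7, from 1, 0, 0, 2 and 1 reads. The FoxO6 libraries held 4.26, 22.3, 17.4, 27.8 and 11.5 TPM from 11, 41, 40, 69 and 23 reads. The arms did not overlap, and the lowest FoxO6 library was that of day 0. Against the floor of 3 reads set for a count of 0, the level in CPM (counts scaled to the library total with TMM factors) exceeded DsRed at least 12.4-fold at day 1, and day 3 was at least 9.82-fold higher. The ratio was 22.4 at day 5 (exact 95% interval 5.98 to 189) and 27.4 at day 7 (4.46 to 1131), and at day 0 its interval reached below 1 (5.83, 0.85 to 251). Such intervals cover counting error only. They are no test of a gene that was chosen by name and met the level through FoxO6. The gene had too few reads to enter the test used below, and since it was chosen by name none is given for it.

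Among related exchangers, the Golgi exchanger Slc9a8 ran from 14.6 to 25.9 TPM with DsRed and from 14.3 to 34.0 TPM with FoxO6. Its arms overlapped, and it did not pass the test described below (log2 fold change 0.17, edgeR adjusted p = 0.574). Slc9a5, a plasma membrane exchanger best known in neurons, was lower with FoxO6 on all 5 days (log2 fold change -0.81, standard error 0.23, edgeR adjusted p = 0.0416).

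**Figure D1:**
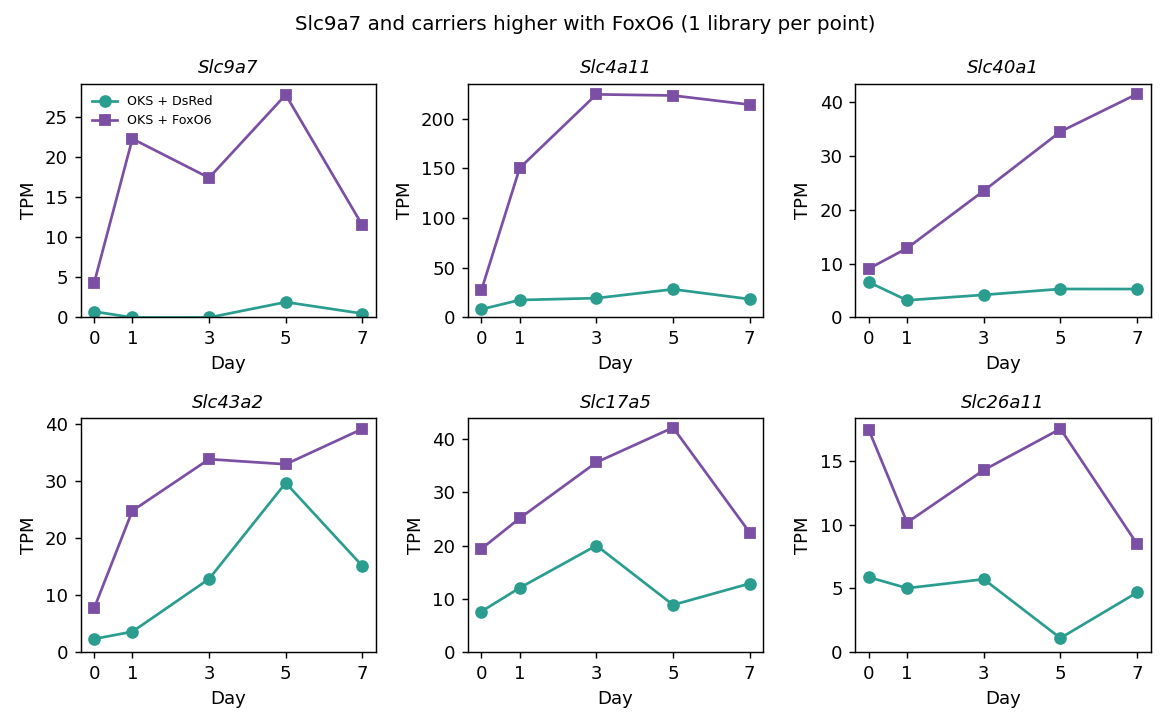
Level in TPM (vertical axis) by day (horizontal axis) of Slc9a7 and of 5 carriers called higher with FoxO6, with 1 library per point, circles for OKS + DsRed and squares for OKS + FoxO6. Slc9a7 stays at or below 1.92 TPM with DsRed, and Slc4a11 reaches 214 to 225 TPM with FoxO6 from day 3 on.

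Whether FoxO6 shifted the carriers over the whole course was asked with edgeR's quasi-likelihood test, fitted to the counts of all genes with day as a factor. An adjusted p under 0.05 counted as a call, and log2 fold changes are for OKS + FoxO6 over OKS + DsRed. Of 140 carriers tested, 17 were higher with FoxO6 (12.1%) and 6 lower (4.29%). Among all 11028 genes tested, 6.86% were called higher and 7.09% lower. Among the 10684 genes tested that met the same level of 5 TPM, the shares were 6.97% and 7.04%. The median shift of the carriers was 0.11 on the log2 scale, beside -0.02 for the genes of that level. The carriers' share of calls in either direction, 16.4%, depended on 3 of the days. Without day 3 only 6 carriers were called, all higher (4.32%, beside 6.39% of all genes in that fit), and without day 5 also 6, all higher (4.38%, beside 5.97%). Without day 1 there were 10, of which 9 were higher (7.09%, beside 9.73%). In these 3 fits the carriers thus lay below the share of all genes. Over the 11 alternatives run, 4 carriers passed under each, Slc4a11 and Slc17a5 among them, and the other 19 lost the call under at least 1.

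The level rule bears on these counts. Of the 145 carriers, 11 had a mean under 5 TPM in 1 arm and met the level through the other, 7 through FoxO6 and 4 through DsRed. Slc9a7, Slc40a1, Slc26a11, Slc22a5 and Slc2a12 are among the 7, and Slc52a3 is among the 4. For these the rule required the other arm's mean to be higher, by much only for Slc9a7 (0.63 TPM with DsRed). The DsRed means of Slc40a1, Slc26a11, Slc22a5 and Slc2a12 lay between 4.46 and 4.90 TPM. The FoxO6 mean of Slc52a3 was 4.42 TPM. Calls of these carriers are given as a description. The genes of the same level used for comparison were chosen in the same way. Of the 145, 5 had too few reads for the test. Beside Slc9a7 these were the mitochondrial carriers Slc25a14 (mean 7.04 TPM) and Slc25a53 (5.54), the vesicular nucleotide carrier Slc17a9 (9.33) and Slc22a18 (8.16).

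Slc4a11 (chromosome 2, 130684113 to 130697519, minus strand) moved most. It encodes a proton and ammonia transporter of the plasma membrane known from inherited corneal dystrophy. With DsRed it held 8.26, 17.6, 19.5, 28.4 and 18.5 TPM at days 0, 1, 3, 5 and 7. With FoxO6 it held 27.5, 151, 225, 223 and 214 TPM. Only the day 0 library with FoxO6 lay within the DsRed range, and on each day the FoxO6 library was more than 2-fold higher. The shift was 3.21 (standard error 0.17, edgeR adjusted p = 3.82e-06).

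Slc40a1 (chromosome 1, 45908068 to 45926523, minus strand) encodes ferroportin, the iron exporter of the cell. With DsRed it stayed between 3.19 and 6.55 TPM. With FoxO6 it stood at 9.05, 12.9, 23.5, 34.5 and 41.5 TPM, higher on each later day, without overlap. It is one of those that met the level through the FoxO6 arm, with a mean of 4.90 TPM with DsRed, and its log2 fold change of 2.12 (standard error 0.33) is given as a description.

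Of the amino acid and peptide carriers, 6 of 25 tested were higher and 1 was lower (6.97% and 7.04% of genes of that level). Slc43a2, which releases branched-chain amino acids and phenylalanine by facilitated diffusion, shifted most (log2 fold change 1.46, standard error 0.33, edgeR adjusted p = 0.0137). It held 2.33, 3.60, 12.9, 29.7 and 15.1 TPM with DsRed and 7.67, 24.8, 33.8, 33.0 and 39.2 TPM with FoxO6. The arms came close only at day 5, and the DsRed library of day 0 held only 3 reads (ratio 5.30 in CPM, exact 95% interval 1.65 to 27.1). Slc36a1, a proton-coupled amino acid carrier of lysosomes, had a shift of 0.75, and its FoxO6 libraries (18.1 to 26.9 TPM) lay above all DsRed libraries (10.5 to 15.8). Slc38a2, the SNAT2 carrier of small neutral amino acids, was higher by 0.43 and Slc3a2, the heavy chain that brings Slc7a5 and Slc7a11 to the cell surface, by 0.40, each on all 5 days. The other 2 higher carriers, Slc15a4 (0.57) and Slc6a8 (0.41), were named after their values were seen. Slc6a6 was the lower one, at 113, 153, 236, 335 and 335 TPM with DsRed and 112, 91.1, 197, 238 and 179 TPM with FoxO6 (log2 fold change -0.44, standard error 0.11, edgeR adjusted p = 0.0246). Its 2 day 0 libraries were alike, and every later FoxO6 library was lower than the DsRed library of its day. Of the calls in this group, only that of Slc36a1 held without day 3 and only that of Slc43a2 without day 5. DESeq2 did not call Slc3a2, Slc15a4 or Slc6a8.

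Of the 23 carriers of zinc, iron, copper and magnesium, 4 were higher and 0 lower, beside the same 6.97% and 7.04%. Besides Slc40a1 they were the zinc importers Slc39a8 (0.83) and Slc39a6 (0.75) and the zinc exporter Slc30a4 (0.59, named after its values were seen). Slc39a6 held between 51.2 and 78.7 TPM with DsRed and between 65.8 and 125 TPM with FoxO6, and its day 7 library was the lowest of the FoxO6 arm. Slc39a8 was higher at days 0 to 5 and at day 7 held 27.2 TPM with DsRed and 25.9 with FoxO6. The group median was 0.20.

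Of the 19 ion carriers tested, 3 were higher and 1 lower, again beside 6.97% and 7.04%. Beside Slc4a11 the higher ones were Slc26a11, an anion transporter found in lysosomes (1.31, standard error 0.35), and Slc12a2, the sodium-potassium-chloride cotransporter NKCC1 (0.90, standard error 0.23). Slc26a11 held 5.88, 5.02, 5.72, 1.11 and 4.68 TPM with DsRed and 17.4, 10.2, 14.3, 17.5 and 8.48 with FoxO6, without overlap but with only 2 reads in the DsRed library of day 5. Slc12a2 was higher with FoxO6 up to day 5 and at day 7 held 12.6 TPM against 17.2 with DsRed. Of the 14 fuel carriers, 2 were higher and 0 lower (6.97% and 7.04%), and the glucose transporter Slc2a12 was one of them, at 0.97.

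The mixed group had 2 higher and 3 lower of 20, beside 6.97% and 7.04%. Slc17a5 (chromosome 9, 78536488 to 78588041, minus strand) encodes sialin, which exports sialic acid from lysosomes. It held 7.64, 12.1, 20.02, 8.88 and 12.9 TPM with DsRed and 19.4, 25.1, 35.6, 42.1 and 22.4 TPM with FoxO6, so that only the day 0 library with FoxO6 lay within the DsRed range (log2 fold change 1.38, standard error 0.20, edgeR adjusted p = 0.00132). Slc22a5, the carnitine carrier OCTN2, was higher by 1.08. Its reads were in part divided among genes by the counting, and its neighbours Slc22a4 and Slc22a21 are close relatives, so its level is uncertain. The lower ones were the riboflavin carrier Slc52a3 (-1.18), the lysosomal nucleoside carrier Slc29a3 (-0.94) and Slc44a1 (-0.73). Slc52a3 had 0 reads at day 0 in both arms, and at day 1 it had 5 with DsRed and 3 with FoxO6. Its call was lost under DESeq2 and without day 1 or day 3. Slc29a3 held 16.7, 18.0, 22.2, 39.7 and 28.0 TPM with DsRed and 17.2, 7.75, 12.1, 11.6 and 12.7 TPM with FoxO6. Slc44a1 held 26.6, 95.4, 115, 107 and 110 TPM with DsRed and 36.1, 41.2, 56.4, 72.5 and 45.9 TPM with FoxO6. For both, the FoxO6 library was the higher one at day 0 and the DsRed library on every later day.

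Among 30 mitochondrial carriers tested, 0 were called higher and 1 lower by edgeR, beside 6.97% and 7.04% of genes of that level, and the median shift was -0.10. At an unadjusted p under 0.05 in either direction there were 7 of the 30, beside 28.0% of genes of that level. Slc25a24, which exchanges ATP-magnesium for phosphate, was the one called, at -0.51 (standard error 0.11, adjusted p = 0.0113, lower on all 5 days). Slc25a4 was also lower on all 5 days but did not pass (-0.36, edgeR adjusted p = 0.0705). None of the 9 nucleotide sugar and Golgi carriers was called by edgeR, and 0 of them had an unadjusted p under 0.05, beside the same shares of genes of that level. The differences between role groups were not tested.

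**Figure D2:**
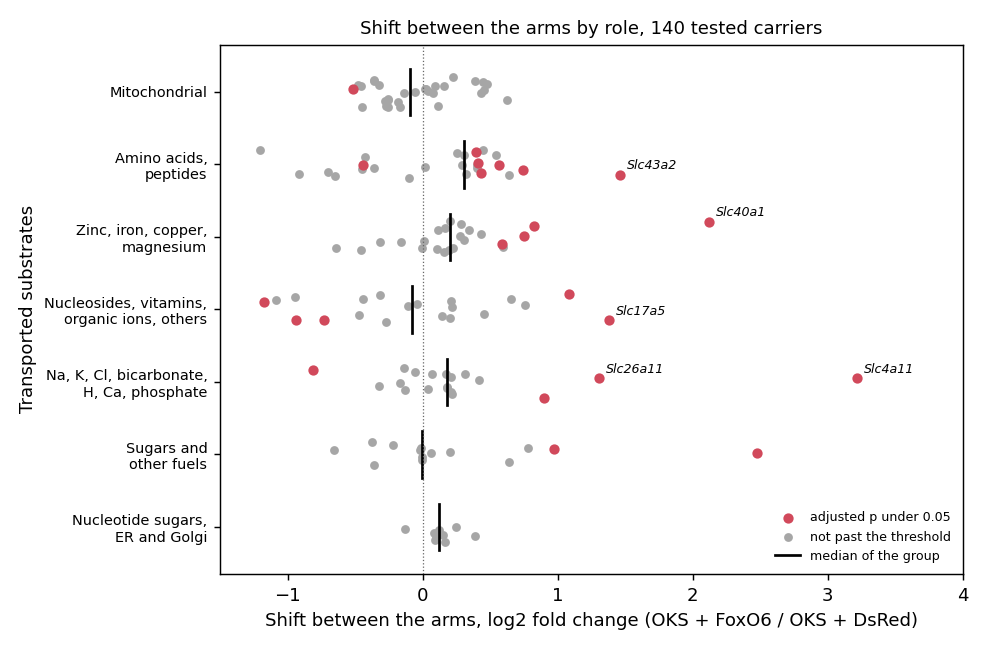
Shift between the arms (log2 fold change of OKS + FoxO6 over OKS + DsRed, horizontal axis) of the 140 tested carriers by role group (vertical axis, points spread vertically for legibility), with large points for an adjusted p under 0.05 and bars for group medians. The group medians lie between -0.10 for mitochondrial carriers and 0.31 for amino acid carriers, and Slc4a11 and Slc40a1 lie above 2.

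Day by day, differences in log2(TPM + 1) past 2-fold were counted without a test, since each arm has 1 library per day. At day 0, 13 of the 145 carriers were higher with FoxO6 and 2 lower, beside 7.87% and 4.20% of the 11491 genes of that level. At day 1 the counts were 11 and 8 (5.39% and 6.47%), at day 3 they were 16 and 10 (5.62% and 8.42%) and at day 5 they were 18 and 7 (7.69% and 7.80%). At day 7 the balance was the other way, with 11 higher and 18 lower (6.67% and 12.7%). That order depended on the scale. On TMM-scaled CPM, day 7 had 14 higher and 12 lower, and with the trend along transcript length removed 16 higher and 10 lower. Day 0 had 12 and 5 on CPM and 10 and 4 with the trend removed. In sign alone, 31 of the 145 carriers were higher with FoxO6 on all 5 days, beside 11.6% of genes of that level. On all 5 days 11 were lower, beside 9.64%.

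Slc4a11 and Slc9a7 passed 2-fold on all 5 days, and Slc43a2 and Slc40a1 on 4. No carrier was past 2-fold lower on more than 3 days. Slc7a11, Slc38a5 and Slc27a3 passed 2-fold in both directions on different days. The 17 carriers called higher over the course were all higher with FoxO6 at day 0, by 0.36 (Slc6a8) to 1.62 (Slc4a11) in log2(TPM + 1). Day 0 was part of the fit that selected them, so this sign is largely built in. The median day 0 difference of all genes of that level was 0.11. The 6 called lower differed at day 0 by -0.26 (Slc25a24) to 0.43 (Slc44a1).

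**Figure D3:**
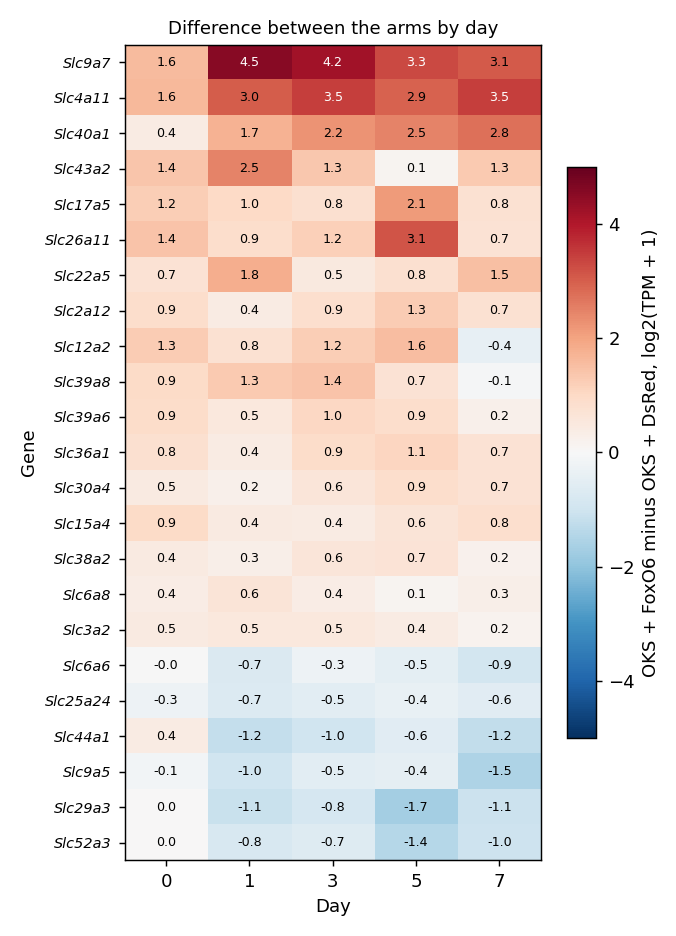
Difference in log2(TPM + 1), OKS + FoxO6 minus OKS + DsRed, by day (columns) for Slc9a7 and 22 of the 23 carriers called (rows), with 1 library per arm and day and no error. Slc9a7 and Slc4a11 exceed 1 in every column, while Slc12a2 and Slc39a8 lie below 0 at day 7.

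The carriers also changed during reprogramming in both arms, which the day 7 coefficient of the same fit measures. By that test 30 of 140 carriers differed between day 7 and day 0, with 19 higher (13.6%) and 11 lower (7.86%). Among all genes tested 11.2% were higher and 9.97% lower, so the carriers lay near the background. Of the 30, 24 kept the call under all 8 alternatives and 3 lost it under at least 1. The other 3 were too low to be fitted when a day was left out, Slc38a4 without day 1 and Slc38a5 and Slc52a3 without day 5, and kept the call under the other alternatives.

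Among the called rises, 2 carriers had 0 reads at day 0 in both arms. Slc38a5, the glutamine and serine carrier SNAT5, reached 18 reads with DsRed and 78 with FoxO6 at day 7, at least 3.70-fold and at least 36.1-fold higher in CPM against the floor of 3 reads. Slc52a3 reached 40 and 17 reads, at least 8.22-fold and at least 7.86-fold higher. Slc22a18, which was too low for the test, also had 0 reads at day 0 in both arms and reached 19 and 21 reads, at least 3.90-fold and at least 9.71-fold higher. Slc7a3, a carrier of arginine and lysine, rose most of the tested carriers with reads at day 0 (log2 fold change 4.16, standard error 0.69, edgeR adjusted p = 0.00143). It held 5.88, 21.9, 156, 215 and 108 TPM with DsRed and 6.68, 3.62, 24.3, 96.8 and 107 TPM with FoxO6. Both arms ended alike, while days 1, 3 and 5 were lower with FoxO6, and the shift over all days did not pass (-1.20, edgeR adjusted p = 0.0679). The sodium-coupled sugar carrier Slc5a9 (3.43), Slc43a2 (3.26), the light chain Slc7a7 that pairs with Slc3a2 (3.10), Slc4a11 (2.85) and Slc45a3 (2.28) followed. Slc5a9 and Slc43a2 had 2 and 3 reads in the DsRed library of day 0.

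The fall was largest for Slc38a4, the amino acid carrier SNAT4 (log2 fold change -4.91, standard error 0.60, edgeR adjusted p = 0.000211). It held 55.2, 19.4, 2.23, 0 and 1.67 TPM with DsRed and 51.9, 28.7, 1.33, 3.31 and 3.63 TPM with FoxO6, so that both arms fell alike by day 3. The other 10 falls were smaller. The next in size were Slc25a24 (-1.64), the large neutral amino acid carrier Slc7a5 (-1.54), Slc25a4 (-1.29), the potassium-chloride cotransporter Slc12a4 (-1.24), Slc36a4 (-1.23), Slc7a6 (-1.09) and the phosphate carrier Slc20a1 (-1.05).

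Changes within each arm were again counted without a test. With DsRed, 34 of the 145 carriers were past 2-fold higher at day 7 than at day 0 and 13 past 2-fold lower. Among genes of that level the shares were 17.0% and 10.1%. With FoxO6 there were 23 and 23 (beside 11.6% and 15.1%), or 25 and 17 on CPM and 26 and 14 with the length trend removed. In both arms, 18 carriers were past 2-fold higher and 6 past 2-fold lower, beside 7.32% and 5.73% of genes of that level.

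**Figure D4:**
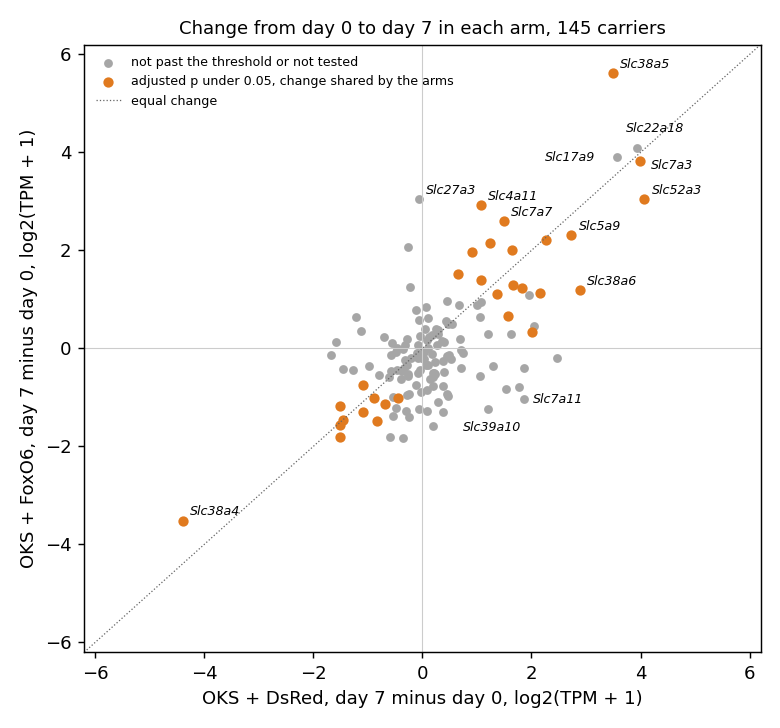
Change from day 0 to day 7 in log2(TPM + 1) for the 145 carriers, with OKS + DsRed (horizontal axis) and OKS + FoxO6 (vertical axis). Large points had an edgeR adjusted p under 0.05 for the average change over the arms. The dotted line marks equal change. Slc38a4 lies far down in both arms, and Slc7a11 and Slc39a10 lie up with DsRed and down with FoxO6.

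Whether the difference between the arms grew or shrank was tested as a slope over the days. By edgeR 0 of 140 carriers and 0% of all genes passed, while 14 carriers and 954 genes had an unadjusted p under 0.05. DESeq2 called 2 carriers and 34 genes. Those 2 were Slc38a6, which encodes SNAT6, at 302 TPM with DsRed and 144 TPM with FoxO6 at day 7, and the acyl-CoA synthetase Slc27a3, at 23.3 and 4.96 TPM at day 0 and 22.2 and 48.1 TPM at day 7. Both were named after their values were seen.

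Slc7a11 (chromosome 3, 49892526 to 50443614, minus strand) encodes xCT, which imports cystine for glutathione synthesis and is a known target of ATF4. It held 14.9, 14.4, 11.4, 27.1 and 56.9 TPM with DsRed and 49.5, 29.3, 36.4, 31.6 and 23.6 TPM with FoxO6. The FoxO6 library was thus the higher one through day 5 and the lower one at day 7. Neither its shift (0.64, edgeR adjusted p = 0.281) nor its slope (-0.37 per day, edgeR adjusted p = 0.39) passed. The 250 bases before its start are shown because they hold more of the motifs searched than those of any other carrier here with a sequence. The window before Slc9a7 is set beside it, since that gene was close to absent in 1 arm. Both are RefSeq promoter sequences on GRCm38.p6, 5′ to 3′ on the gene's strand, and capitals mark motif matches.
Slc7a11, chr3:50443614-50443863, minus strand: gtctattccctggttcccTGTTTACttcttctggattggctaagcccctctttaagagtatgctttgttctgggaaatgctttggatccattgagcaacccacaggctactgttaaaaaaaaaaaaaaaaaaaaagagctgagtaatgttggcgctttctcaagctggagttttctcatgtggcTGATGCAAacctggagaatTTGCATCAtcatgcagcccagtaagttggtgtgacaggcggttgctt
Slc9a7, chrX:20291828-20292077, minus strand: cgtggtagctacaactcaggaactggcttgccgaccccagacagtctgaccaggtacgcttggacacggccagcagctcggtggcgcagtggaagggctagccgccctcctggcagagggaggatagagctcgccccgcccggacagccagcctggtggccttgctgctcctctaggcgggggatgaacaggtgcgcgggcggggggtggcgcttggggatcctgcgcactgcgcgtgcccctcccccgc

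In the Slc7a11 window, TGTTTAC is the forkhead motif GTAAACA on the other strand, and TGATGCAA and TTGCATCA are matches to the ATF4 composite motif TGATGNAA on either strand, 19 bases apart from start to start. The Slc9a7 window held none of the 3 motifs searched on both strands, the third being the lysosomal CLEAR core TCACGTGA. Of the 145 carriers, 108 had a promoter sequence. The forkhead motif was found in 2 of them (1.85%, beside 3.54% of 27025 genes), the ATF4 composite in 3 (2.78%, beside 3.91%) and the CLEAR core in 3 (2.78%, beside 0.91%). None of the 3 motifs was found before the 10 carriers called higher or the 4 called lower that had a sequence. A window without a match says only that these letters are not in it.

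Lists related to the carriers were read from the same fit, in which 6.86% of all genes were called higher and 7.09% lower. Of 8 ATF4 target carriers tested, 2 were higher with FoxO6 (Slc38a2 and Slc3a2) and 0 lower, and both lost the call without day 1, day 3 or day 5. The others did not pass, among them Slc1a4 (0.40, edgeR adjusted p = 0.0616), Slc7a5 (-0.45, 0.0828) and Slc7a1 (-0.65, 0.0579). Of ATF4 itself and its other targets, 0 of 7 were called by edgeR. Of the 4 retrovirus receptors, Slc7a1, Slc20a1, Slc20a2 and Slc1a5, 0 were called between the arms by edgeR, and their summed level lay between 171 and 365 TPM with DsRed and between 195 and 338 with FoxO6.

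Of the 17 subunits and accessory proteins of the proton pump of endosomes and lysosomes, 9 were higher with FoxO6 and 0 lower, beside 6.86% and 7.09% of all genes, with a median shift of 0.57. Atp6v1e1 (1.11), Atp6v0b (1.10) and Atp6v1d (0.97) shifted most. The summed level of the pump was between 1959 and 2669 TPM with DsRed and between 3262 and 4018 TPM with FoxO6, without overlap. Of 9 partner proteins of carriers tested, 4 were higher and 0 lower, beside the same shares. Emb, the chaperone embigin of monocarboxylate carriers, shifted by 2.44 and the sodium pump subunit Atp1b3 by 0.88. Neuroplastin (Nptn), another such chaperone, shifted by 0.40, and Slc3a2 was the fourth. The sodium pump subunit Atp1b1 was not tested, went the other way and was named after its values were seen. At day 7 it held 40.0 TPM (98 reads) with DsRed and 2.22 TPM (5 reads) with FoxO6. Of 16 transporters that belong to the carrier series under other names, 1 was higher, the lysosomal lysophospholipid carrier Spns1 (0.43), and 0 were lower, which is near the share of all genes.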

How the data were processed

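RNA from 10 libraries of MEFs was sequenced, 1 per arm and day. The authors mapped reads by Bowtie2 to the GENCODE M13 transcriptome (mm10 per the labels) and quantified them by RSEM. The deposited expected counts are its raw estimates, and the deposited TPM values are RSEM's levels per length. RSEM divides reads between similar genes, and 26 of the 145 carriers had at least 1 count that was not exactly whole as deposited. The kit named differs between the methods and the labels. Strand handling is not given in the sources used here. Samples were grouped by their labels.

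Expected counts were rounded and fitted with edgeR 4.0.16 in R 4.3.3 (quasi-likelihood, TMM, filterByExpr by arm, Benjamini-Hochberg over all 11028 genes tested). The designs were arm plus day (4 residual degrees of freedom) and arm by linear day (6). Differences of log2(TPM + 1) past 1 are 2-fold differences, and this pseudocount of 1 understates low genes. Counts of 0 were set to a floor of 3 reads, and ratios against 1 to 3 reads carry exact Clopper-Pearson intervals from scipy 1.17.1. Python 3.11.15, pandas 2.3.3 and matplotlib 3.10.9 were used. The fits were tested on simulated data. Coordinates are from GENCODE M21 (GRCm38), and promoters from RefSeq.

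The members, role groups (by family number), lists and tests were chosen with earlier results of these data known. Genes named were Slc9a7, the 12 largest shifts in each direction, carriers 2-fold on at least 4 days, the 8 largest rises and falls, those at the level's edge, the highest of each group, other SLC9 members, ATF4 targets and receptors, and list genes past the threshold. Markers of macrophages, endothelium and red cells were counted too: of these 1, 1 and 0 could be tested, and only endothelial Tek passed (0.95, adjusted p = 0.00121). Alternatives were other size factors, total counts, no filter, DESeq2 1.42.0, a length trend removed by lowess, no day term, each day left out, a level of 10 TPM, a pseudocount of 0.1 and CPM with a prior count of 2. A protein sequence table was not used here. Some genes of the rule are not reported here.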

Additional observations from a re-analysis of the deposited data

Results flagged for a closer look

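The 2 carriers that changed past 2-fold in opposite directions in the arms between day 0 and day 7 were Slc7a11 and Slc39a10. In log2(TPM + 1), Slc7a11 changed by 1.87 with DsRed and by -1.04 with FoxO6. The zinc importer Slc39a10 changed by 1.21 with DsRed (18.8 to 44.9 TPM) and by -1.25 with FoxO6 (31.6 to 12.7 TPM). Each end of each change is 1 library, and the difference between the arms was not tested at these days.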

How the results depend on the processing

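The 23 carriers called for the shift between the arms became 35 without the filter on low counts (24.1% of carriers, beside 9.70% of all genes), 4 without the day term (2.86%, beside 1.53%) and between 6 and 29 with 1 day left out (4.32% to 21.2%, beside 5.97% to 14.0%). All 23 were among the 35. DESeq2 called 19 (13.6%, beside 10.7%; 12 higher, 7 lower), of which 16 were among the 23. The 30 calls for day 7 against day 0 ranged from 27 to 30 with 1 other day left out. The slope had 0 calls by edgeR and 2 by DESeq2, and the 15 carriers past 2-fold at day 0 became 24 with a pseudocount of 0.1. No called carrier changed sign. Day, the only pairing the labels give, was already a term of the fit. Depth limits carriers of few reads: at 5 TPM and a length of 2000 bases a library held between 6.46 and 11.04 reads.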

Other observations

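For Slc7a7, a cationic and neutral amino acid carrier, the change from day 0 to day 7 was larger in reads than in TPM. It went from 8 to 71 reads with DsRed and from 5.03 to 53 reads with FoxO6, while the TPM values went from 13.7 to 40.4 and from 6.28 to 42.9. Slc17a9, which was too low for the test, went from 2 to 48 reads with DsRed (ratio 14.8 in CPM, exact 95% interval 3.88 to 126) and from 1 to 40 reads with FoxO6 (55.5, 9.41 to 2247).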
